A study of Mus musculus with 3 samples.

Results

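The genes described here copy DNA and make its building blocks. They are 42 genes of the 25638 in the count table, chosen by name for their textbook roles: origin licensing, helicase activation, the replicative polymerases and primase, the sliding clamp and its loader, joining of lagging strand fragments, single-strand binding, fork protection and chromatin assembly, deoxynucleotide supply, and uracil removal. The choice was made with earlier results of these data known. All 42 were found in the table. By the submitters' description, RNA was sequenced from CD8+ T cells of the spleen of wild-type, untreated mice. There were 3 libraries, of which 1 came from naive cells, 1 from central memory and 1 from effector memory T cells. Each group is 1 library, so no difference below has a replicate check, no test between conditions was possible, and the intervals given cover counting error only. The sources used here do not give the age, sex or number of the animals, whether animals were pooled, or the surface markers of the sort.

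Before a cell divides, the origin recognition complex, Cdc6 and Cdt1 load the MCM helicase onto DNA, a step called licensing. In S phase the helicase is switched on by Cdc45, the GINS complex and Mcm10, polymerase alpha and primase lay down primers, and polymerases delta and epsilon extend them with the help of the PCNA ring. Ribonucleotide reductase, thymidylate synthase, thymidine kinase and dUTPase supply the deoxynucleotides. Naive T cells rest outside the cell cycle, and many replication genes are known targets of E2F transcription factors, which are held in check in resting cells. Memory T cells divide slowly to keep their numbers, and T cells that have met antigen divide fast.

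Deposited counts summed to 26876909 in the naive, 35846315 in the central memory and 33087462 in the effector memory library. Levels are normalised counts (CPM, which scales each library to a common total), with library sizes adjusted by the TMM method, and 3 counts correspond to 0.108, 0.0837 and 0.0938 CPM in the same order. The 5 CD8 T cell genes summed to 4081, 3012 and 1885 CPM, with Cd8a at 1868, 1063 and 408 CPM and Cd8b1 at 1055, 540 and 276 CPM. The CD3 genes of the list did not follow this order. Cd3e stood at 395, 418 and 335 CPM, Cd3d at 316, 421 and 295 CPM, and Cd3g at 447, 570 and 572 CPM. The 3 CD4 T cell genes summed to 7.403, 39.3 and 94.1 CPM, and this order came from Zbtb7b alone. Zbtb7b, which encodes the transcription factor ThPOK, stood at 1.33, 37.4 and 93.6 CPM. The other genes of that list were highest in naive cells, Cd4 itself at 2.12, 0.251 and 0.281 CPM and Foxp3 at 3.95, 1.70 and 0.156 CPM. Cd44, a marker of antigen-experienced T cells, stood at 2.95, 45.8 and 113 CPM. Markers of cells other than T cells also differed between the libraries. The 4 NK cell genes summed to 0.503, 56.8 and 12.3 CPM, with Ncr1 at 0 in the naive and effector memory libraries. Klrb1c stood at 0.216, 33.0 and 1.91 CPM and Klra8 at 0, 3.68 and 0 CPM. Fcer1g went the other way between the memory libraries, at 0.288, 7.96 and 10.4 CPM, and made up most of the effector memory sum. The 6 B cell genes summed to 31.2, 6.17 and 2.81 CPM, with Ms4a1 and Ebf1 at 0 in both memory libraries. Erythroid genes summed to 1.005 to 1.47 CPM and plasma cell genes to 0.216 to 1.47 CPM. Myeloid genes summed to 3.99 to 4.35 CPM, with Adgre1 at 0, but single myeloid genes differed in direction. Lyz2 stood at 2.52, 0.0558 and 0 CPM, Itgam at 1.47, 3.77 and 1.19 CPM, and Cd14 at 0.0719, 0.112 and 3.03 CPM. Thymocyte genes summed to 0.614 to 3.63 CPM with Rag1, Rag2 and Ptcra at 0, so this sum was Dntt alone, at 3.63, 0.614 and 1.13 CPM. One T cell receptor segment, Trbv12-1, held 7.13% of the Trbv counts in the naive library, 99.6% in central memory and 98.4% in effector memory. The memory libraries thus also differed from the naive one in receptor repertoire. How Trbv12-1 came to hold nearly all Trbv counts in memory cells of mice described as wild-type and untreated was not tested. The part of these marker and repertoire differences in the results was not tested either. In bulk RNA, a larger share of replicating cells and more RNA per replicating cell cannot be told apart.

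Replication genes were lowest in naive cells, intermediate in central memory cells and highest in effector memory cells. Together they took 0.139% of all counts in the naive library (exact binomial 95% interval 0.137 to 0.140), 0.276% in central memory (0.274 to 0.278) and 0.839% in effector memory (0.835 to 0.842). Their summed levels were 1340.3, 2760 and 8676 CPM in that order. The order naive, central memory, effector memory held for 38 of the 42 genes. In the other 4 genes, Cdt1, Pole2, Rpa3 and Ung, central memory was the lowest, and effector memory was the highest library for all 42.

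**Figure D1:**
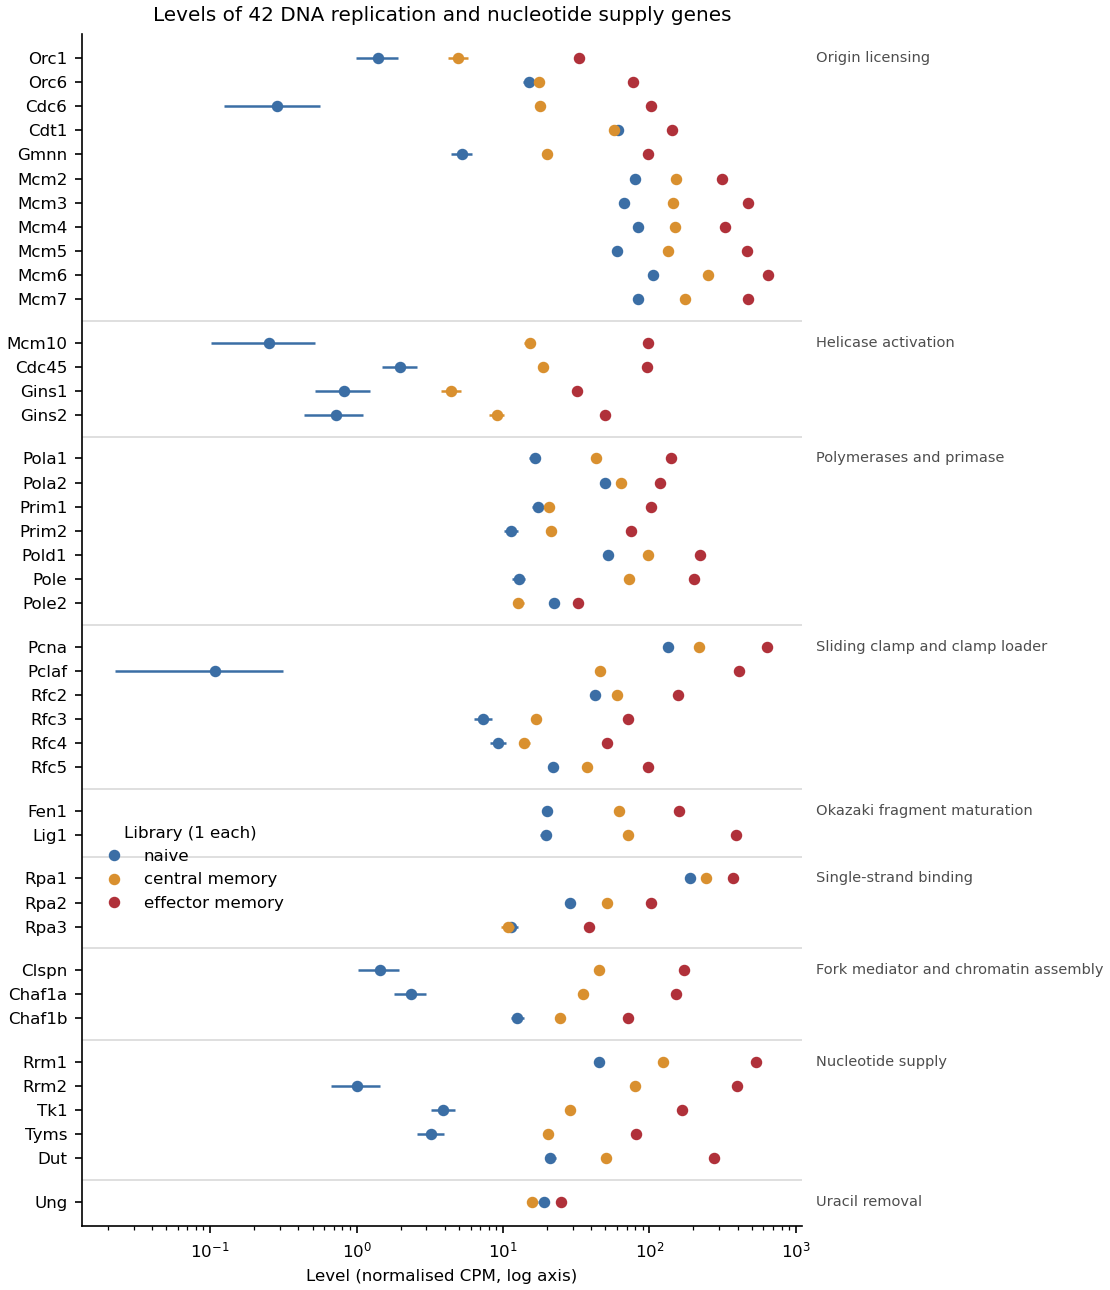
Level of each of the 42 genes in each library, in normalised CPM on a log axis, with genes grouped by role, 1 point per library and bars for the exact 95% counting interval. Effector memory is the rightmost point for every gene, and the naive points of Pclaf, Mcm10, Cdc6, Gins2 and Gins1 lie below 1 CPM.

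A gene was called different between libraries when the higher library reached 5 CPM, the ratio was at least 2 and the exact 95% counting interval of the ratio excluded 1. Between central memory and naive cells, 22 of the 42 genes were called higher and 0 lower, where 11.2% of the 9737 genes at the minimum level were called higher and 5.12% lower. Another 18 were not called, and Orc1 and Gins1 stayed under 5 CPM in both libraries. Between effector memory and naive cells, 39 of 42 were called higher and 0 lower, where the background was 22.3% higher and 15.6% lower of 10087 genes. The exceptions were Pole2, Rpa1 and Ung. Between effector and central memory cells, 38 of 42 were called higher and 0 lower, where 14.8% of 9975 genes were called higher and 12.8% lower. Pola2, Rpa1, Rpa2 and Ung were not called there. The median log2 ratio of the 42 genes was 1.18, 2.88 and 1.84 in these 3 comparisons, beside 0.14, 0.06 and -0.06 for all genes at the minimum level. The 3 comparisons share libraries and are not independent of each other.

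**Figure D2:**
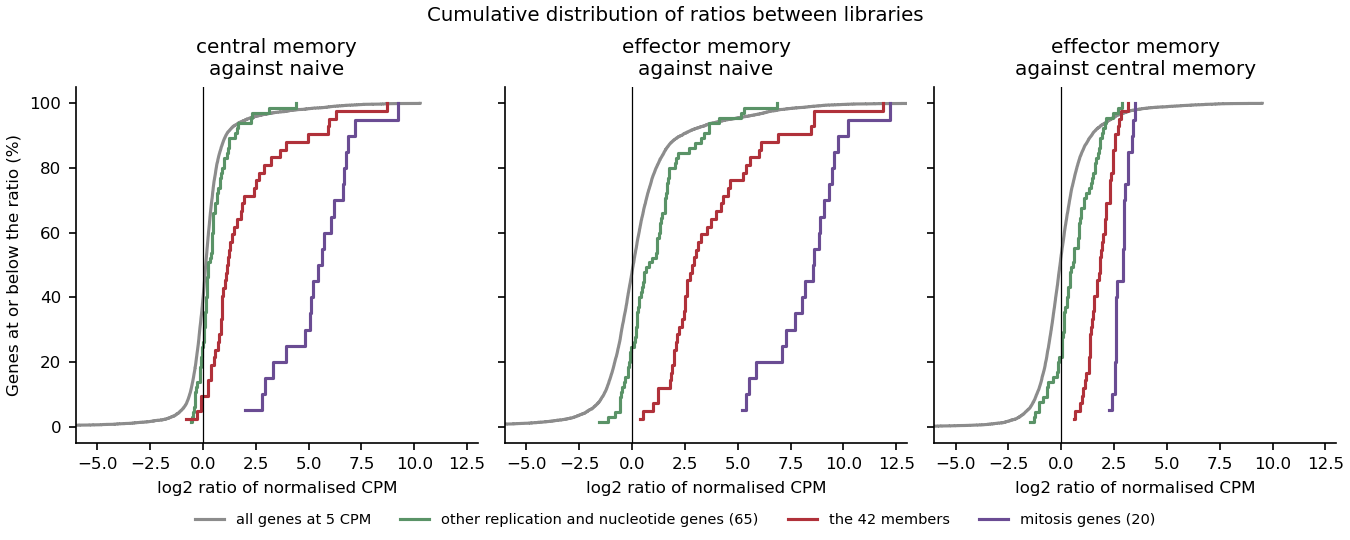
Cumulative share of genes (vertical axis) by log2 ratio (horizontal axis) for the 42 replication genes, the 65 other genes of the pathway, the 20 mitosis genes and all genes at the minimum level, in 3 panels for the 3 comparisons. At the median the curve of the 42 genes lies to the right of all genes in each panel, and the mitosis curve lies further right.

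The promoters of these genes were then read for shared letters, which played no part in choosing the genes. RefSeq promoter windows on build GRCm38.p6, from 250 bases before to 50 bases after the transcription start, were matched for 35 of the 42 genes, in 39 windows. The letters of an E2F element (TTTCCCGC, TTTCGCGC, TTTGCCGC or TTTGGCGC, on either strand, overlapping matches included) were present for 14 of the 35 genes, 40.0%. The same letters were present for 5.09% of 8038 genes that reached 5 CPM in these libraries, and for 2.61% of all 27025 genes with a window. Counted by window, they were in 35.9% of the 39 windows and in 2.26% of all 32851 windows. CCAAT, the box bound by NF-Y, was present for 21 of 35 genes, 60.0%, against 43.6% of the genes at 5 CPM and 41.1% of all genes. TTTGAA, the letters of the cell cycle homology region typical of mitotic genes, was present for 3 of 35, 8.57%, against 14.1% of genes at 5 CPM and 20.2% of all genes. These are letter matches and were not tested as binding sites.

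The 14 matches nearest to the start are printed to show the shared letters, each as 30 bases in the direction of the gene, 5′ to 3′, with the letters of that match alone in capitals (further matches that reach into the Rfc3 and Mcm5 runs stay in lower case) and the position on GRCm38.p6 beside the name. They began between -149 bases (Mcm5) and 39 bases (Pold1) from the start.
Pclaf (chr9:65890307-65890336, plus strand): gcttggagcgcGCGGGAAAgagacccattt
Cdc6 (chr11:98908002-98908031, plus strand): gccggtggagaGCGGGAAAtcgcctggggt
Clspn (chr4:126556990-126557019, plus strand): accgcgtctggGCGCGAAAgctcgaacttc
Orc1 (chr4:108579416-108579445, plus strand): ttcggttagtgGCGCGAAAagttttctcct
Lig1 (chr7:13278841-13278870, plus strand): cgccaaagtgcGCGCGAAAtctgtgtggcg
Rfc3 (chr5:151651190-151651219, minus strand): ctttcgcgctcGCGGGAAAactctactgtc
Pola1 (chrX:93632275-93632304, minus strand): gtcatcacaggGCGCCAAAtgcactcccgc
Mcm5 (chr8:75109349-75109378, plus strand): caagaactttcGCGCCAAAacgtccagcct
Mcm3 (chr1:20820275-20820304, minus strand): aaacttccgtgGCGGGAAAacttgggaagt
Mcm6 (chr1:128359734-128359763, minus strand): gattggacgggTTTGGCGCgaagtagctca
Mcm7 (chr5:138171849-138171878, minus strand): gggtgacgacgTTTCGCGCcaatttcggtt
Pold1 (chr7:44548766-44548795, minus strand): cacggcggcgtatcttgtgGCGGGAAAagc
Cdt1 (chr8:122568035-122568064, plus strand): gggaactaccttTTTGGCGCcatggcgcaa
Pole2 (chr12:69228162-69228191, minus strand): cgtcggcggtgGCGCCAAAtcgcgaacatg
Pclaf had the largest ratio between effector memory and naive cells and Pole2 one of the smallest. The median ratio was 8.13 (1.44 to 3793) for the 14 genes with an E2F match and 5.72 (1.31 to 396) for the 21 matched genes without one. Both sets thus held genes with small and large ratios, and the highest ratio was in the set with a match.

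Longer stretches of 150 bases upstream are shown for 5 genes chosen for contrast: 2 helicase subunits with E2F letters, 2 genes with very large ratios and no E2F match in the window, and Rpa1, whose ratio was small. E2F and CCAAT letters, on either strand, are in capitals.
Mcm5 (chr8:75109359-75109508, plus strand): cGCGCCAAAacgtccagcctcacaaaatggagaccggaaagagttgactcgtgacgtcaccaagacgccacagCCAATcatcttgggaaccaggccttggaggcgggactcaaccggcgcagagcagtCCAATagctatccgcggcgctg
Mcm6 (chr1:128359706-128359855, minus strand): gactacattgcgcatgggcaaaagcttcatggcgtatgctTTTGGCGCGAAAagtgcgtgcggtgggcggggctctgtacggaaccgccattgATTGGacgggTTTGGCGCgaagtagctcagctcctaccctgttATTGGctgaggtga
Rrm2 (chr12:24708104-24708253, plus strand): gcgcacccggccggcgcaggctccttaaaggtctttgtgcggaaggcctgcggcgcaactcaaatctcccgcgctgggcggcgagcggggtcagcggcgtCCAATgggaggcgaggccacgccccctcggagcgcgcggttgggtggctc
Mcm10 (chr2:5012792-5012941, minus strand): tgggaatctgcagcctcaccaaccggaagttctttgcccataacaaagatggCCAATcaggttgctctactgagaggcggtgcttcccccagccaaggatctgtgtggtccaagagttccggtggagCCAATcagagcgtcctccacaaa
Rpa1 (chr11:75348384-75348533, minus strand): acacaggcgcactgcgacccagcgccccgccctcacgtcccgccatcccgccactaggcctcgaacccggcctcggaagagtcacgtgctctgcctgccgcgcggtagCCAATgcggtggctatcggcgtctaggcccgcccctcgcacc
Mcm6 held 3 E2F matches in this stretch, 2 of them overlapping, and all 5 stretches held CCAAT letters.

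Naive levels of the licensing genes were graded, from Cdc6 at 0.288 CPM to Mcm6 at 105 CPM. Summed over 11 genes, licensing levels were 2.002-fold higher in central memory and 5.60-fold higher in effector memory than in naive cells. All 11 were called higher in effector memory than in naive cells, and 6 of 11 in central memory than in naive cells. The shares over all genes were 22.3% and 11.2%. The helicase subunits Mcm2 to Mcm7, which form the ring that unwinds DNA, were all abundant in naive cells. Mcm6 stood at 105, 253 and 649 CPM in the naive, central memory and effector memory libraries, a 6.16-fold difference between the last and the first (5.93 to 6.40). Mcm5 stood at 60.2, 134 and 463 CPM, 7.70-fold higher in effector memory than in naive cells (7.32 to 8.11). Mcm3 at 66.6, 144 and 469.9 CPM and Mcm7 at 83.3, 174 and 470.5 CPM followed the same steps, though their calls between central memory and naive cells (2.16-fold and 2.09-fold) were lost under other scalings. Mcm2 at 80.1, 152.5 and 314.5 CPM and Mcm4 at 83.5, 149.7 and 327 CPM differed least, 3.92-fold and 3.91-fold, and were not called between central memory and naive cells (1.90-fold and 1.79-fold).

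Cdc6, the ATPase that brings the helicase to the origin, contrasted with the ring it loads. It had 8 counts in the naive library, 0.288 CPM, against 17.8 CPM in central memory and 103 CPM in effector memory cells. The ratio to naive cells was 61.9 (31.2 to 144) in central memory and 358 (181 to 830) in effector memory. Cdt1, the partner of Cdc6 in loading, was far more even at 60.7, 57.3 and 143 CPM. With TMM scaling the 2 lower libraries of Cdt1 were indistinguishable by counting error (1.06-fold, 0.993 to 1.13), and effector memory was 2.35-fold above naive (2.23 to 2.49). The first of these depends on the scaling. The ratio of central memory to naive cells was 0.944 with TMM (0.884 to 1.01). It was 0.876 with DESeq2 size factors and 0.865 with upper quartile factors, both below that interval. Gmnn, which encodes geminin, the inhibitor that binds Cdt1 to block a second round of licensing, stood at 5.25, 19.96 and 97.3 CPM. It was 3.80-fold higher in central memory (3.18 to 4.58) and 18.6-fold higher in effector memory (15.7 to 22.1) than in naive cells. The inhibitor thus differed more between the libraries than its target. Orc1, the subunit of the origin recognition complex that is degraded after licensing, stood at 1.402, 4.94 and 32.9 CPM, 23.4-fold higher in effector memory than in naive cells (17.0 to 33.2). Orc6, another subunit, stood at 15.0, 17.7 and 77.3 CPM, and most of its difference lay between the memory libraries (4.36-fold, 3.99 to 4.77).

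Mcm10, Cdc45, Gins1 and Gins2, which help to switch the loaded helicase on, were each below 2 CPM in naive cells. Their summed level over these 4 genes was 12.5-fold higher in central memory and 72.9-fold higher in effector memory than in naive cells, the widest span of any role. Mcm10, a factor needed for origin firing, had 7 counts in the naive library, 0.252 CPM, and 15.2 and 97.7 CPM in central and effector memory cells. Its ratio between effector memory and naive cells was 388 (188 to 966). Cdc45, which joins the MCM ring to form the active helicase, stood at 1.98, 18.6 and 95.7 CPM, a 48.4-fold difference between effector memory and naive cells (37.1 to 64.5). The GINS subunit Gins1 stood at 0.827, 4.41 and 31.8 CPM, and Gins2 at 0.719, 9.04 and 49.97 CPM. The effector memory level exceeded the naive one 38.5-fold for Gins1 (25.5 to 61.0) and 69.5-fold for Gins2 (44.9 to 114). Most of the annotated exonic bases of Gins2, 67.3%, are shared with Gse1 on the opposite strand, and reads of these bases cannot be told apart where the strand used in counting is not known. Gse1 had 1776, 2874 and 1777 counts. The remaining GINS subunits, which belong to the list of other pathway genes and are given here after their values were seen, were well detected in naive cells. Gins3 stood at 8.91, 17.9 and 27.0 CPM, 3.02-fold higher in effector memory than in naive cells (2.62 to 3.50), and Gins4 at 26.3, 29.9 and 56.8 CPM, 2.16-fold higher (1.98 to 2.36).

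**Figure D3:**
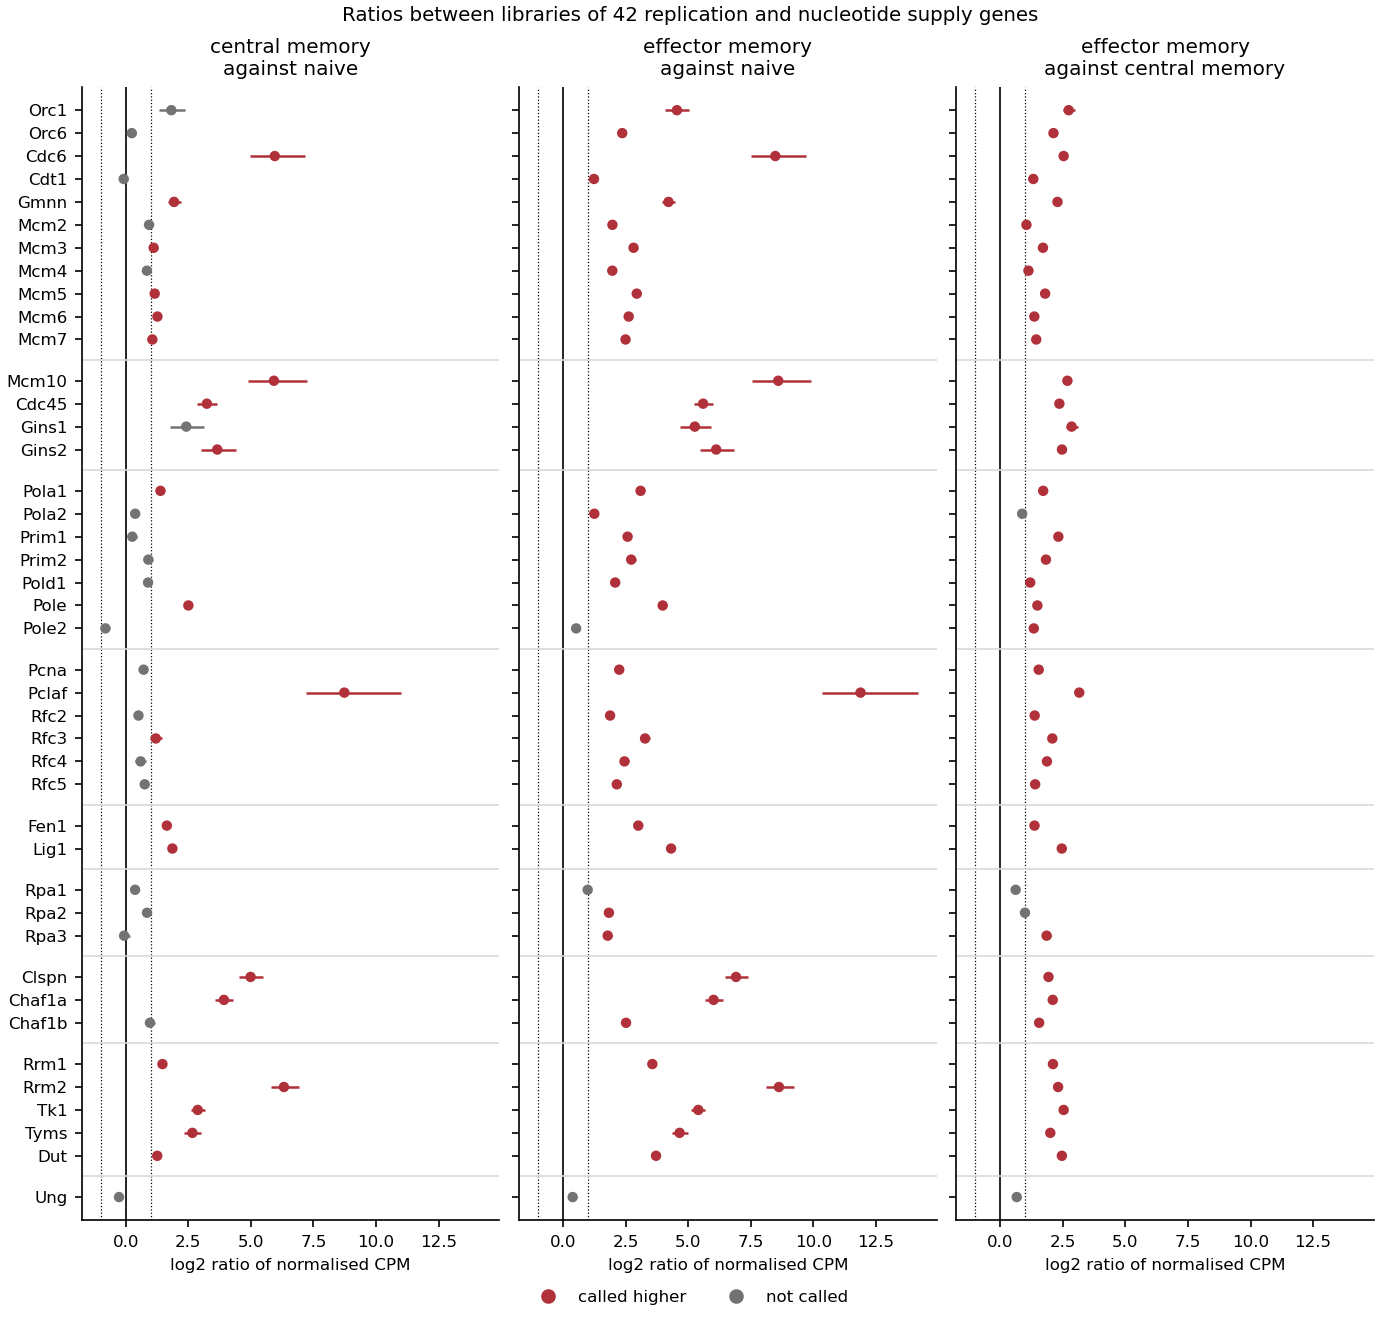
Log2 ratio of normalised CPM for each gene in the 3 comparisons, with horizontal bars for the exact 95% counting interval, red points for genes called higher and grey points for genes not called. Dotted lines mark a ratio of 2 in each direction, and the widest bars belong to genes with few naive counts such as Pclaf, Mcm10 and Cdc6.

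Polymerase and primase genes differed less, 1.82-fold and 4.90-fold in sum, and their subunits differed among themselves. Pole, the catalytic subunit of the leading strand polymerase epsilon, stood at 12.8, 72.4 and 202 CPM, and was 5.66-fold higher in central memory (5.06 to 6.34) and 15.8-fold higher in effector memory (14.2 to 17.6) than in naive cells. Its accessory subunit Pole2 went the other way in central memory, at 22.5, 12.8 and 32.3 CPM. Pole2 was 1.76-fold lower in central memory than in naive cells (1.56 to 1.99), short of the 2-fold rule, and its effector memory level was 1.44-fold above naive (1.30 to 1.59). Pole2 was thus the gene of the 42 furthest below its naive level in central memory. Pola1, the catalytic subunit of polymerase alpha, stood at 16.4, 42.9 and 141 CPM (8.57-fold between effector memory and naive cells), while its partner Pola2 stood at 49.7, 64.4 and 118 CPM (2.38-fold). The primase subunits Prim1, at 17.3, 20.6 and 103 CPM, and Prim2, at 11.4, 21.2 and 75.3 CPM, differed mainly between the memory libraries. Pold1, the catalytic subunit of the lagging strand polymerase delta, stood at 52.5, 97.1 and 222 CPM. Of the 7 genes, 2 were called higher in central memory and 6 in effector memory than in naive cells. The shares over all genes at the minimum level were 11.2% and 22.3%.

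Pclaf had the largest ratio of all 42 genes, and its partner Pcna one of the highest levels in every library. Pclaf encodes a small PCNA-associated factor and lies on mouse chromosome 9, plus strand, at 65890237 to 65903266 (GENCODE M21, mm10 coordinates). It had 3 counts in the naive library, 0.108 CPM, against 45.9 CPM in central memory and 409 CPM in effector memory cells. The ratio to naive cells was 426 (145 to 2066) in central memory and 3793 (1298 to 18396) in effector memory, and the 3 naive counts set the width of both intervals. By ratio, Pclaf ranked 10 of 9737 genes in the first comparison and 5 of 10087 in the second. Between the memory libraries, where counts were ample, it was 8.91-fold higher in effector memory (8.47 to 9.39), the largest such ratio among the 42. Pcna, the sliding clamp itself, stood at 134, 219 and 633 CPM, a 4.74-fold difference between effector memory and naive cells (4.58 to 4.91). The clamp loader subunits that open the ring, Rfc2 at 42.3, 60.1 and 156 CPM, Rfc3 at 7.33, 16.8 and 71.1 CPM, Rfc4 at 9.31, 14.0 and 51.0 CPM and Rfc5 at 22.0, 37.2 and 97.6 CPM, were 3.68-fold to 9.70-fold higher in effector memory than in naive cells. Of these only Rfc3 was called between central memory and naive cells, where 11.2% of all genes were called higher. Rfc2 shares 15.1% of its exonic bases with Lat2, which had 5, 219 and 1287 counts. Rfc4 shares 12.7% with Eif4a2, which had 32976, 17850 and 13032 counts, and Rfc5 10.7% with Wsb2, which had 785, 1217 and 804 counts. The part of reads from these neighbours in the Rfc2, Rfc4 and Rfc5 values was not tested.

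Genes that finish the lagging strand were higher in both memory libraries. Fen1, the nuclease that trims RNA-primed flaps, stood at 19.98, 62.2 and 160.4 CPM, and was 3.11-fold (2.84 to 3.42) and 8.03-fold (7.35 to 8.78) above its naive level. The exonic bases of Fen1 are shared to 78.8% with another gene model. Lig1, the ligase that seals the nicks, stood at 19.6, 71.1 and 390.5 CPM. Lig1 was 3.63-fold higher in central memory (3.31 to 3.99) and 19.9-fold higher in effector memory (18.3 to 21.8), so that the step between the memory libraries was 5.49-fold for Lig1 and 2.58-fold for Fen1. The subunits of RPA, which coats single-stranded DNA in repair as well as replication, summed to 1.34-fold the naive level in central memory and 2.25-fold in effector memory. Rpa1 stood at 188, 243 and 373 CPM, 1.98-fold higher in effector memory than in naive cells (1.91 to 2.04) and just short of the rule. Rpa2 at 28.6, 51.4 and 102 CPM and Rpa3 at 11.3, 10.8 and 38.9 CPM were called between effector memory and naive cells, 3.56-fold and 3.44-fold higher. Rpa3 did not differ between central memory and naive cells beyond counting error (1.05-fold lower, 0.899 to 1.22). There 0 of the 3 RPA genes were called, beside 11.2% of all genes called higher and 5.12% lower.

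Clspn, which encodes claspin, the adaptor that carries the checkpoint signal at the fork, was 31.7-fold higher in central memory (23.2 to 44.5) and 120.4-fold higher in effector memory (88.3 to 169) than in naive cells. Its levels were 1.44, 45.6 and 173 CPM. Chaf1a, the large subunit of the CAF-1 complex that deposits histones behind the fork, stood at 2.34, 35.4 and 151 CPM, a 64.7-fold difference between effector memory and naive cells (50.7 to 84.0). Its partner Chaf1b stood at 12.5, 24.5 and 71.8 CPM, a 5.72-fold difference (5.11 to 6.42). Per kilobase of the principal transcript, Chaf1a was the lower of the pair in all 3 libraries, at 0.422, 6.39 and 27.3 CPM per kilobase against 6.53, 12.7 and 37.3 for Chaf1b. This order depends on the length assumed. With the length of all annotated exons, Chaf1a was the lower in naive and central memory cells but the higher in effector memory cells, at 17.1 against 15.3. Chaf1a shares 52.5% of its exonic bases with Ubxn6 on the opposite strand, which had 1293, 2266 and 1392 counts, so its exact level is uncertain.

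Nucleotide supply genes were all called higher in every comparison, 5 of 5. The shares over all genes were 11.2% and 22.3% for central and effector memory against naive cells and 14.8% between the memory libraries. The summed level of the 5 genes was 4.09-fold the naive level in central memory and 19.6-fold in effector memory. Rrm2 encodes the small subunit of ribonucleotide reductase that is made in S phase and lies on chromosome 12, plus strand, at 24708241 to 24714146. It had 28 counts in the naive library, 1.01 CPM, against 80.3 CPM in central memory and 398 CPM in effector memory. Its ratio to naive cells was 79.8 (55.1 to 120.3) and 396 (274 to 596). Rrm1, the large subunit of the same enzyme, stood at 45.1, 124.5 and 535 CPM and was 11.9-fold higher in effector memory than in naive cells (11.2 to 12.6). Tk1, the cytosolic thymidine kinase of dividing cells, stood at 3.92, 28.7 and 166 CPM, a 42.3-fold difference (35.0 to 51.7). Tyms, which makes dTMP, stood at 3.20, 20.2 and 80.7 CPM (25.2-fold), and Dut, the dUTPase that keeps uracil out of DNA, at 21.1, 50.4 and 277 CPM (13.1-fold). Ung, the glycosylase that removes uracil already in DNA, stood apart at 19.0, 15.8 and 24.9 CPM. It was 1.21-fold lower in central memory (1.07 to 1.36) and 1.31-fold higher in effector memory (1.17 to 1.46) than in naive cells and was called in 0 of the 3 comparisons.

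The size of the difference went with how much RNA naive cells already had. The 5 genes below 1 CPM in the naive library (Cdc6, Mcm10, Gins1, Gins2 and Pclaf) had a median ratio between effector memory and naive cells of 358 (38.5 to 3793). The median was 48.4 (23.4 to 396) for 7 genes between 1 and 5 naive CPM, 6.61 (1.31 to 19.9) for 13 genes between 5 and 20 CPM and 4.24 (1.44 to 13.1) for 17 genes at 20 CPM or more. The naive level is also the denominator of these ratios, so the order is a description and not a separate result. The place of central memory between the other 2 libraries was read on the log2 scale, where 0 is the naive and 1 the effector memory level. Over the 32 genes that differed at least 4-fold between these ends, the median place was 0.44. Prim1 at 0.10 and Orc6 at 0.10 had the lowest places, and Pclaf at 0.73, Rrm2 at 0.73 and Clspn at 0.72 the highest. A place is a share of each gene's own log2 span, which the naive level helps to set. A high place is therefore not a small step to effector memory. Pclaf had the largest ratio between the memory libraries, 8.91-fold, and its span rests on 3 naive counts. The same limit holds for the places by role. By role, the median place was 0.35 for clamp and loader genes, 0.41 for licensing, 0.43 for polymerases, 0.49 for fragment joining, 0.53 for nucleotide supply, 0.59 for helicase activation and 0.65 for fork and chromatin genes. The place of central memory cells thus varied from gene to gene.

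Ratios between partner genes within a library do not depend on library scaling. Levels were divided by the length of the principal transcript for this purpose, in CPM per kilobase. Cdt1 exceeded its inhibitor Gmnn 5.96-fold in naive cells (5.03 to 7.11) and 1.48-fold in central memory cells (1.36 to 1.61), and the ratio was 0.756 (0.722 to 0.792) in effector memory cells, where the inhibitor was the higher of the pair. Rrm2 relative to Rrm1 went from 0.0406 (0.0269 to 0.0590) in naive to 1.18 (1.12 to 1.23) in central memory and 1.35 (1.32 to 1.39) in effector memory cells. With the length of all annotated exons the memory values were 2.56 and 2.95, so how near the subunits are to balance depends on the length assumed. The step from naive to central memory cells was far larger than the step between the memory libraries. The assumed length cancels in these steps and cannot alter them. Relative to Rrm2b, the alternative small subunit used outside S phase, Rrm2 went from 0.0406 to 4.61 (4.32 to 4.93) and 47.4 (43.5 to 51.6). Pclaf relative to Pcna went from 0.00056 (0.000115 to 0.00164) to 0.146 and 0.448, so the associated factor remained the lower of this pair in all 3 libraries.

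**Figure D4:**
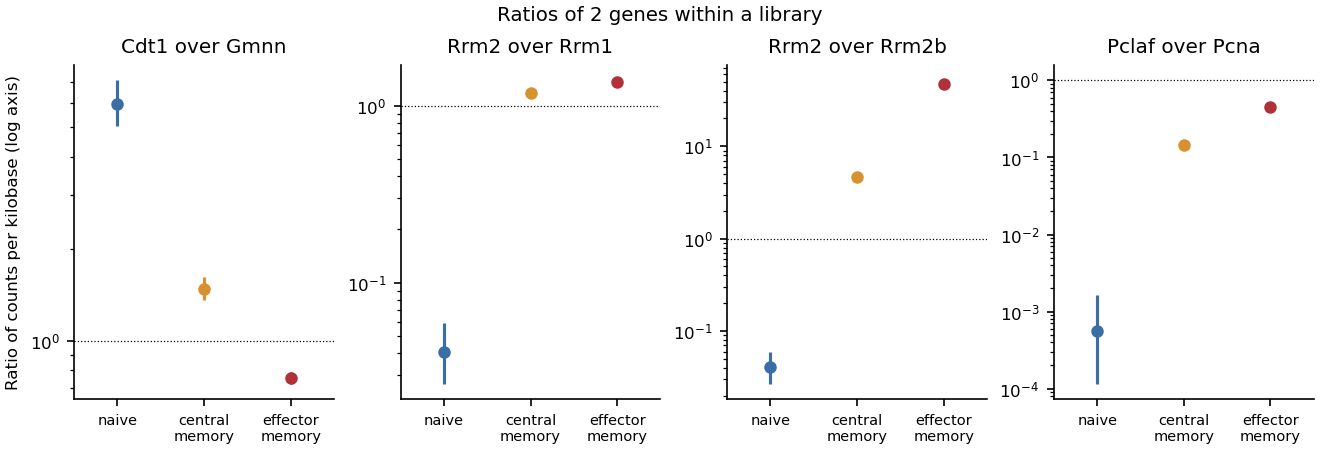
Ratio of the length-adjusted levels of 4 gene pairs in each library, on a log axis, with bars for the exact 95% counting interval. Cdt1 over Gmnn runs down from naive to effector memory and crosses 1, and the other 3 ratios run up.

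Subunits of a complex were compared on the same per-kilobase scale. Within Mcm2 to Mcm7 the highest gene exceeded the lowest 2.03-fold in naive, 2.19-fold in central memory and 2.45-fold in effector memory cells, with Mcm6 highest in all 3. The ring genes ran from 17.8 to 36.2 CPM per kilobase in naive and from 91.0 to 223 in effector memory cells, so the 2 ranges did not overlap. Within polymerase alpha and primase the span narrowed from 6.68-fold in naive to 3.31-fold and 2.47-fold in central and effector memory cells, with Pola1 lowest throughout on this length. In polymerase epsilon the order changed: Pole2 was 7.37-fold above Pole in naive cells, while Pole was 1.35-fold and 1.49-fold above Pole2 in central and effector memory cells. Rfc2 to Rfc5 stayed within 1.52-fold, 1.17-fold and 1.73-fold, and RPA within 2.36-fold, 2.98-fold and 1.31-fold. Both the spans and the subunit that is lowest or highest depend on the length assumed. With the length of all annotated exons the spans were 3.31-fold, 2.05-fold and 1.69-fold for Rfc2 to Rfc5, 3.54-fold, 4.60-fold and 1.97-fold for RPA, and 3.21-fold, 2.17-fold and 2.10-fold for polymerase alpha and primase. Mcm2 was then the lowest ring gene, and Mcm4 the highest in naive cells. The change of order between Pole and Pole2 held with both lengths.

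**Figure D5:**
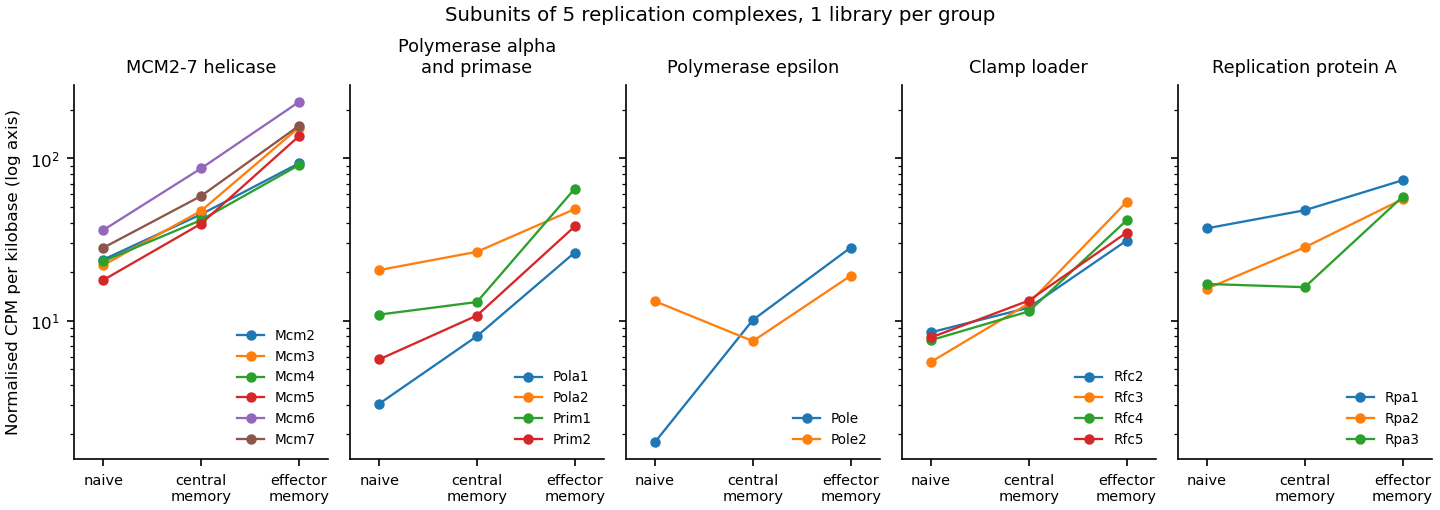
Length-adjusted level, in CPM per kilobase on a log axis, of each subunit of 5 replication complexes in each library. The Pole and Pole2 lines cross between naive and central memory. Mcm6 is the highest subunit of the MCM ring in each library, and the lines only link the same gene.

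Other genes of the pathway, a list of 65, differed less than the 42. Both lists were chosen with earlier results of these data known, so the contrast between them is a description only. In effector memory against naive cells 31 of 65 were called higher and 2 lower, against a background of 22.3% and 15.6%. The median log2 ratio was 0.80. The counts were 11 higher and 0 lower in central memory against naive cells (median 0.27), where the background was 11.2% and 5.12%. They were 21 higher and 5 lower in effector against central memory cells (median 0.54), where it was 14.8% and 12.8%. Fork and polymerase genes held most of the calls, 18 of 24 between effector memory and naive cells, followed by licensing and firing genes with 7 of 14 and nucleotide metabolism with 6 of 27. The last share, 22.2%, was at the background of 22.3% for this comparison. Ticrr, which encodes treslin, needed for origin firing, stood at 0.934, 19.99 and 108.8 CPM, a ratio of 116 (79.4 to 179) between effector memory and naive cells. Dna2, a nuclease of flap removal, had a ratio of 38.9 (25.8 to 61.6), Dscc1, a subunit of an alternative clamp loader, 36.2 (22.1 to 63.6), and Asf1b, a histone chaperone, 17.2 (14.8 to 20.04). The 5 genes called lower in a comparison all lay on the side of nucleotide metabolism except Mcm9, a helicase of recombination repair. In each comparison the list was called lower less often than all genes. Nucleotide metabolism held 4 of 27 lower between the memory libraries, near the background of 12.8%, so no theme is read from these genes. Rrm2b stood at 51.6, 36.2 and 17.5 CPM, 2.95-fold lower in effector memory than in naive cells (2.67 to 3.26), opposite to Rrm2. Tk2, the mitochondrial thymidine kinase, stood at 64.0, 81.0 and 29.1 CPM, 2.20-fold lower in effector memory than in naive cells, opposite to the cytosolic Tk1. Between the memory libraries effector memory was also lower for the mitochondrial kinase gene Dguok (2.38-fold), for Mcm9 (2.04-fold) and for Samhd1, which encodes an enzyme that breaks down deoxynucleotides (2.46-fold). Samhd1 was 2.31-fold higher in central memory than in naive cells.

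Mitosis genes, a list of 20 also chosen with earlier results known, gave a comparison with the next stage of the cell cycle. All 20 were called higher in each of the 3 comparisons, beside 11.2%, 22.3% and 14.8% of all genes. Their median log2 ratios were 5.54, 8.57 and 2.92, against 1.18, 2.88 and 1.84 for the replication genes. Their summed levels were 34.5, 1119 and 7066 CPM, naive library first. In the naive library 12 of the 20 lay below 1 CPM, against 5 of the 42 replication genes. Mki67, the proliferation marker, stood at 2.62 CPM in naive and 1819 CPM in effector memory cells, a ratio of 694 (551 to 885), and Cenpf, a kinetochore gene, had a ratio of 4782 (1323 to 39487). In naive cells the replication genes thus ranged from levels as low as those of mitosis genes, as with Cdc6, Mcm10, Pclaf and Rrm2, to the levels of Rpa1, Pcna and Mcm2 to Mcm7.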

How the data were processed

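RNA of splenic CD8+ T cells was purified with Trizol and sequenced from TruSeq RNA libraries on an Illumina instrument, per the labels. The authors deposited 1 table of raw counts per gene for 3 libraries, and per the submitters' processing notes the tools were CASAVA, HISAT2 2.0.5 and featureCounts 1.5.0-p3 with build mm10. The sources used here do not state the annotation, the strand setting or how reads with several matches were counted, and 15 of the 42 genes share exonic bases with another GENCODE M21 gene. Columns were matched to samples by the abbreviations in their headers. Counts were scaled to CPM with TMM factors (edgeR 4.0.16, R 4.3.3), which were 1.04, 0.999 and 0.967. With 1 library per group, ratios carry exact Clopper-Pearson 95% intervals (SciPy 1.17.1), which cover counting error only, and no test across genes was made. The calling procedure was tested on simulated data that held counting error only, so that test does not cover differences between animals or libraries. Alternatives were other scalings, minimum levels and fold thresholds. Other pathway genes were named by the interval bound nearest 1 between effector memory and naive cells (the 4 highest) and by any call of lower, and mitosis genes likewise by that bound. Transcript lengths came from GENCODE M21 principal transcripts, and 25295 of 25638 names (98.7%) were matched. In 33 of 39 promoter windows the last 20 bases lay in a GENCODE transcript of the gene. The members and lists were chosen with earlier results of these data known.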

Additional observations from a re-analysis of the deposited data

How the results depend on the processing

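No paired analysis was possible because each group holds 1 library, which also leaves no replicate to leave out. With a ratio of at least 4 in place of 2, the replication genes called higher numbered 11 between central memory and naive cells and 17 between effector and central memory cells. With a ratio of at least 1.5, 1 gene, Pole2, was called lower in central memory. Under the other scalings and minimum levels the counts stayed within 1.5 times, and the direction of 0 of the 42 genes changed with the scaling. Scaling moved the median log2 ratio of all genes by -0.11 (DESeq2 size factors) and -0.12 (upper quartile) between central memory and naive cells. The calls of Mcm3 (1.98 with upper quartile) and Mcm7 (1.94 with DESeq2, 1.91 with upper quartile) in central memory, and of Mcm2 (1.99 with total counts) between memory libraries, were lost, and Rpa2 gained one (2.09 and 2.01). With the length of all exons, chosen after seeing the data, Cdt1 over Gmnn was 1.34 in central and 0.685 in effector memory cells, Rrm2 over Rrm1 was 0.0886, 2.56 and 2.95, Rrm2 over Rrm2b was 0.0643, 7.31 and 75.1, and Pclaf over Pcna was 0.105 and 0.322 in the memory libraries. Genes with under 10 naive counts, Cdc6, Mcm10 and Pclaf, have ratios known only within wide intervals.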
